A study of Homo sapiens with 23 samples.

Results

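HOX genes encode homeodomain transcription factors and lie in 4 clusters on different chromosomes. The loops described here are the rows of 2 chromatin loop lists in which either 5 kb bin overlapped the gene body of 1 of 38 HOX genes. There were 38 such loops among 7075 in the library labelled T0 and 28 among 9591 in the library labelled T30. The members were 10 HOXA genes on chromosome 7 (27100354 to 27200091, hg38), 10 HOXB genes on chromosome 17 (48528526 to 48728750), 9 HOXC genes on chromosome 12 (53938831 to 54056030) and 9 HOXD genes on chromosome 2 (176087487 to 176190907).

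Both libraries came from T47D, an established breast cancer line with progesterone receptor, and there was 1 library per condition with no replicate. In HiChIP, DNA fragments that touch in the nucleus are ligated and then pulled down with an antibody, in this study one against the progesterone receptor (PR), so a count of contacts reflects both proximity and the pull-down. Per the labels, T47D cells were moved to medium without serum and then given R5020, a synthetic progestin, or progesterone. The T0 title names no hormone and the T30 title reads PR5020, and for this pair the labels state no dose and no unit of time. Of the 23 samples of the series only these were used here, so HOX expression was not examined. The depth of the libraries is unknown. The lists sum to 127457 contacts in T0 and 135538 in T30, which count listed loops alone.

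Within a HOX cluster the order of the genes along the chromosome follows the body axis along which each acts in the embryo, with low paralog numbers towards the head and high numbers towards the tail. The clusters arose by duplication, so genes with the same number, and several neighbouring gene families, recur around them. The HOXA and HOXD clusters are known to sit at a border between domains of chromatin contact, with genes at either end contacting the flank on their own side. In the mammary gland HOX genes take part in development, and HOXB13, HOXB7 and HOXA5 among others have been studied in breast cancer.

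MicroRNA genes lie within the clusters, and 4 of them are shown that were in member bins with a listed loop, because they share those loop ends with the HOX genes. The sequences are from RefSeq (GRCh38.p14), with the seed, bases 2 to 8, in capitals. A partner bin is a bin joined to the given bin by a loop. Partners and loop ends are counted from the listed bin pair of each loop. The merged range around that pair can cover more bins and is left out of these counts. A count of 0 therefore does not mean that no merged range covered the bin. The miR-10a gene (mature arm at chr17:48579904-48579926, minus strand) shared its bin with HOXB3 and HOXB4, with 0 partner bins in T0 and 1 in T30. The bin of miR-196b (chr7:27169528-27169549, minus strand) overlapped HOXA9 and had 0 and 1. The bin of miR-196a (gene MIR196A2, chr12:53991762-53991783, plus strand) overlapped HOXC10 and had 0 and 1. The bin of miR-615 (chr12:54034010-54034031, plus strand) overlapped HOXC4, HOXC5 and HOXC6 and had 2 and 2. MIR3185 lay in a HOXB13 bin with 3 and 0.
hsa-miR-10a-5p: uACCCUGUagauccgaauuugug
hsa-miR-196a-5p: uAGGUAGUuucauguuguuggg
hsa-miR-196b-5p: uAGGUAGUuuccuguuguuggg
hsa-miR-615-3p: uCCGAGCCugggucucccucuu
The miR-196a and miR-196b sequences have the same seed, although the 2 genes located here, MIR196A2 and MIR196B, lie in the HOXC and HOXA clusters. The miR-10a seed and the miR-615 seed differ from it and from each other.

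A RefSeq promoter entry was found for 20 members. In HOXB only HOXB1 had one, and in HOXC only HOXC4 and HOXC5. The looped HOXB members and most looped HOXC members are therefore not covered by the motif counts. The entries gave 26 distinct start sites, of which 4 start sites fell in a bin with a listed loop. The 250 bases before each of these starts are shown, as the sequences at the loop ends themselves. Capitals mark matches to the 4 motifs searched on both strands, which were the progesterone receptor palindrome, the hormone response hexamer TGTTCT, the core of the CTCF motif and the FOXA motif TGTTTAC. The HOXA7 window lies at chr7:27156676-27156925 on the minus strand, HOXA9 at chr7:27165538-27165787 on the minus strand, the start shared by HOXC4 and HOXC5 at chr12:54016638-54016887 on the plus strand, and HOXD8 at chr2:176129455-176129704 on the plus strand.
HOXA7: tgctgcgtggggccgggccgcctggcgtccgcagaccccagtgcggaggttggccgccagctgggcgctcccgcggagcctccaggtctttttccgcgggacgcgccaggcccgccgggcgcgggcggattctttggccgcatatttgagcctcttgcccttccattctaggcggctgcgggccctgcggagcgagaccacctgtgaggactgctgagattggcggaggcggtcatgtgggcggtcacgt
HOXA9: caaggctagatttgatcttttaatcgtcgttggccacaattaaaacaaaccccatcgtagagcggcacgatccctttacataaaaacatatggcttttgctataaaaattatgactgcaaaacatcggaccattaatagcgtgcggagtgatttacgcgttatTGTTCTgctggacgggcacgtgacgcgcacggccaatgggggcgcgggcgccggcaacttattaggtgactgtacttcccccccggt
HOXC4 and HOXC5: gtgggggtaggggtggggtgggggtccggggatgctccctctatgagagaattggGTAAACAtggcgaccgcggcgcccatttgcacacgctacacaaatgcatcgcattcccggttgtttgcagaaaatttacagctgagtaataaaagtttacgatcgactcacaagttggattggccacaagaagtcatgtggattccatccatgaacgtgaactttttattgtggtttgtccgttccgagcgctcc
HOXD8: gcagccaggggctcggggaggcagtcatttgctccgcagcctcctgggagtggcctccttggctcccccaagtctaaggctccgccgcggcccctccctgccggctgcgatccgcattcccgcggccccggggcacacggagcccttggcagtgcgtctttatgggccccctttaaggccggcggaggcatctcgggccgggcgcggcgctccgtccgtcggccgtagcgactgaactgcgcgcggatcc
The HOXA9 window held the hexamer 87 bases before the start, and the HOXC4 and HOXC5 window held a FOXA match, read on the opposite strand, 195 bases before it. The HOXA7 and HOXD8 windows held none of the 4 motifs. Over all 26 member starts the palindrome was in 0, the hexamer in 3, the CTCF core in 1 and the FOXA motif in 1. Among 34943 promoter windows of the same length these letters were in 0.326%, 12.4%, 2.02% and 2.98%. A hexamer match can overlap a palindrome match. A match is a description of the letters and not of binding.

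The share of HOX genes at a loop was above that of all protein-coding genes in both libraries. A loop end lay in 18 of 38 members in T0 (47.4%) and in 19 in T30 (50.0%), against 19.7% and 23.5% of 19974 protein-coding genes. Most members are short and crowd into shared bins. Among the 32 members of 10 kb or less, each library had 14 with a loop (43.8%), against 12.8% and 15.6% of protein-coding genes of that length. In all, 13 members had a loop in both libraries (against 11.5% of genes) and 24 in either (63.2%, against 31.8% of genes). Since neighbouring members share bins and loops, these are not independent counts.

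The clusters differed widely. Of the 10 HOXB genes, 8 were looped in T0 against 7 in T30, and of the 9 HOXC genes 8 and 6. Of the 10 HOXA genes, 1 was looped in T0 against 5 in T30, and of the 9 HOXD genes 1 in each library. By paralog number, 2 of the 7 anterior members (up to 3) were looped in the T0 list and 3 in the T30 list. Central members (4 to 8) had 10 of 15 in each library, and posterior members (9 to 13) had 6 of 16 in each.

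The number of loops was lower in T30 at HOXB and HOXC, while the list as a whole was longer. HOXB had 21 loops in T0 (exact Poisson 95% interval 13.0 to 32.1) and 11 in T30 (5.49 to 19.7), with 343 and 137 contacts. HOXC had 15 (8.40 to 24.7) and 11 (5.49 to 19.7), with 268 and 135 contacts. HOXA had 1 and 5 loops with 12 and 51 contacts, and HOXD had 1 and 1 with 9 and 8. The lists end at different p-values, the largest being 0.000233 in T0 and 2.84e-05 in T30. With both ended at the smaller value, HOXB had 15 and 11 loops and HOXC 12 and 11, among 4270 and 9591. In number, most of the HOXC difference and part of the HOXB difference were then no longer there. As a share of the list, HOX loops remained more frequent in T0, at 29 of 4270 against 28 of 9591 in T30. As listed, in all 4 clusters the intervals of the number of loops overlapped between the 2 libraries. The exact Poisson 95% intervals of the summed contacts overlapped at HOXD only. They lay apart at HOXB and HOXC, with fewer contacts in T30, and at HOXA, with more contacts in T30. These intervals cover counting error only, and there was no replicate of either condition. A sum of contacts also follows the number of loops listed, which at HOXA was 1 and 5. The sums were not recomputed at the common largest p-value, so their intervals do not show a difference between conditions.

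Seen against the lists, HOX loops made up 0.537% of T0 loops (exact binomial 95% interval 0.380 to 0.736) and 0.292% of T30 loops (0.194 to 0.422). The ratio of T30 to T0 loops was 0.737 at HOX genes (0.436 to 1.23) and 1.36 over all loops (1.31 to 1.40). The lists differed in short loops, of which HOX genes had few. Under 20 kb the T0 list held 574 loops and the T30 list 0, with none at HOX genes. Between 20 and 50 kb the T0 list held 360 loops and the T30 list 3024, of which 3 and 1 were at HOX genes. Among loops of 100 to 500 kb, the ratio was 0.821 at HOX genes (28 and 23 loops, 0.452 to 1.48) and 0.882 over all loops (4311 and 3803, 0.844 to 0.922). The surroundings also differed. Loops within 1 Mb of the HOXC cluster but not at a member numbered 58 in T0 and 32 in T30. Their ratio was 0.552, against 0.921 over chromosome 12. Around HOXB there were 30 and 39, a ratio of 1.30, against 1.31 over chromosome 17 and 1.36 over all loops. The ratio was thus below that of the chromosome around HOXC and close to it around HOXB. The part of span and region in the HOX counts was not tested.

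**Figure D1:**
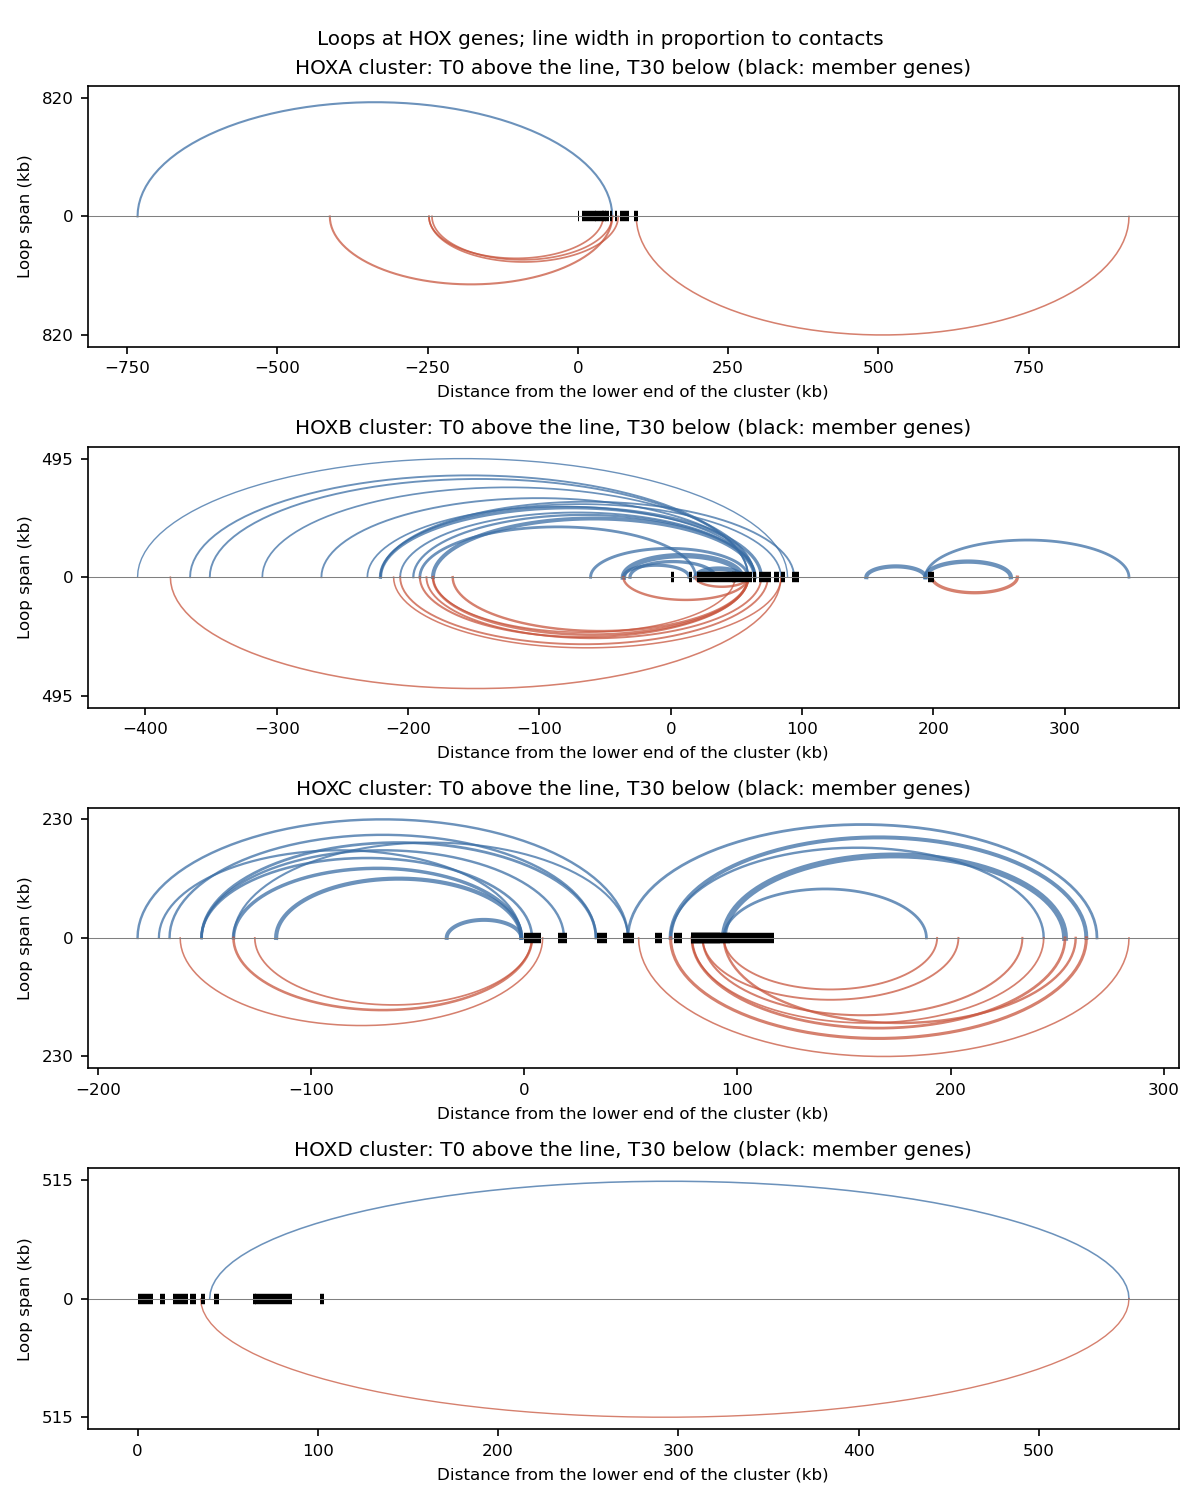
Loops at HOX genes by distance from the lower end of each cluster (kb), with arc height as the loop span (kb), T0 above the line and T30 below, and line width in proportion to contacts; black bars are member genes. HOXB arcs lead mostly to the lower side in both libraries, HOXC arcs lead to both sides, and HOXD has 1 arc per library to a shared far bin.

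At HOXB, loops led mainly to the lower flank, beside the anterior end of the cluster. In T0, 17 loops reached the lower side, 2 the upper side and 2 stayed within the cluster, and in T30 the numbers were 9, 1 and 1. The lower flank holds SKAP1, an adaptor protein gene of T-cell signalling. Of the loops that left the cluster, 12 in T0 (156 contacts) and 8 in T30 (90 contacts) ended in SKAP1, at 14 different bins. A further T0 loop of 8 contacts ended in SNX11, a sorting nexin gene, which was the longest HOXB loop at 495 kb and met HOXB8.

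HOXB3, a hindbrain patterning gene and the longest HOXB member at 41372 bp, had the most loops. It had 13 loops with 14 partner bins (a loop with both ends in the gene gives 2) and 211 contacts in T0, and 6 loops with 6 partners and 78 contacts in T30. HOXB5, whose lower end lies just above the upper end of HOXB3, had 6 partners and 78 contacts in T0 and none in T30. All 6 of these T0 loops met in the bin from 48590001 to 48595000, which HOXB3 and HOXB5 share, and no T30 loop was listed there. However, the merged range of the T30 loop between 48360001 and 48585001, from 48585001 to 48595000, covered this bin. The next bin down, at 48585001, had 3 partners in T0 and 5 in T30. Counted together, the 2 bins had 9 loops with 117 contacts in T0 and 5 loops with 69 contacts in T30. Of the 6 T0 loops at the upper bin, those of 23 and 13 contacts had a T30 counterpart that ended 1 bin lower, outside HOXB5.

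The other HOXB genes had few loops each. HOXB2, a hindbrain patterning gene, had 3 partners and 63 contacts in T0 and 1 partner and 14 contacts in T30. HOXB4, known for its role in blood stem cells, had 0 and 1 partners, with 9 contacts in T30. HOXB6 had 1 and 2 partners, with 19 and 22 contacts, and HOXB7 had 1 and 2, with 10 and 18. HOXB8 had 2 partners and 18 contacts in both. HOXB9, which with its paralogs acts in mammary development, had 1 partner with 11 contacts in T0 and none in T30. Towards the posterior end of this row of genes, a single SKAP1 bin at 48305001 met HOXB6, the HOXB7 and HOXB8 bin and HOXB9 in T0 (3 loops, 40 contacts), and no HOX loop of T30 used it.

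HOXB13, a posterior gene with a major role in the prostate, stands apart from the rest of the cluster and reached the upper flank. It had 3 partners and 65 contacts in T0, and 1 partner and 19 contacts in T30. All 3 T0 loops met the bin at 48720001, which also holds the genes PRAC1 and PRAC2, so they cannot be assigned to HOXB13 alone. The T30 loop met the next bin, at 48725001, where HOXB13 is the only protein-coding gene. Its merged range, 48715001 to 48735000, also covered the bin at 48720001, so it cannot be assigned to HOXB13 alone either. Of the 3 T0 loops, that of 25 contacts ended in TTLL6, a tubulin polyglutamylase gene. Another of 16 contacts ended near CALCOCO2, an autophagy receptor gene, and the third of 24 contacts ended at 48675001 between HOXB9 and HOXB13. The T30 loop also ended in TTLL6, 1 bin further up at both ends. HOXB1, the most anterior member, had none in either library. A bin below it at 48490001 met HOXB2 and HOXB3 in T0 (2 loops, 50 contacts) and HOXB3 in T30 (1 loop, 14 contacts).

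The HOXB loops with most contacts in T0 were 31 contacts between 48490001 and 48580001 (90 kb), 28 between 48545001 and 48580001, which joins the bin of HOXB2 and the lower end of HOXB3 to the upper part of HOXB3 (35 kb), and the HOXB13 to TTLL6 loop. In T30 those with most contacts were the HOXB13 to TTLL6 loop with 19, 15 contacts between 48345001 in SKAP1 and 48585001 (240 kb), and, with 14 contacts each, 3 loops that end at 48585001, from 48360001 in SKAP1 (225 kb), from 48490001 (95 kb) and from 48545001 (40 kb). The loop from 48545001 was the T30 loop with both ends in members. It lay 1 bin from the T0 loop of 28 contacts at its upper end, and the 2 did not match by overlap of ranges. The longest T30 loop, of 465 kb and 9 contacts, joined SKAP1 to the bin of HOXB7 and HOXB8.

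**Figure D2:**
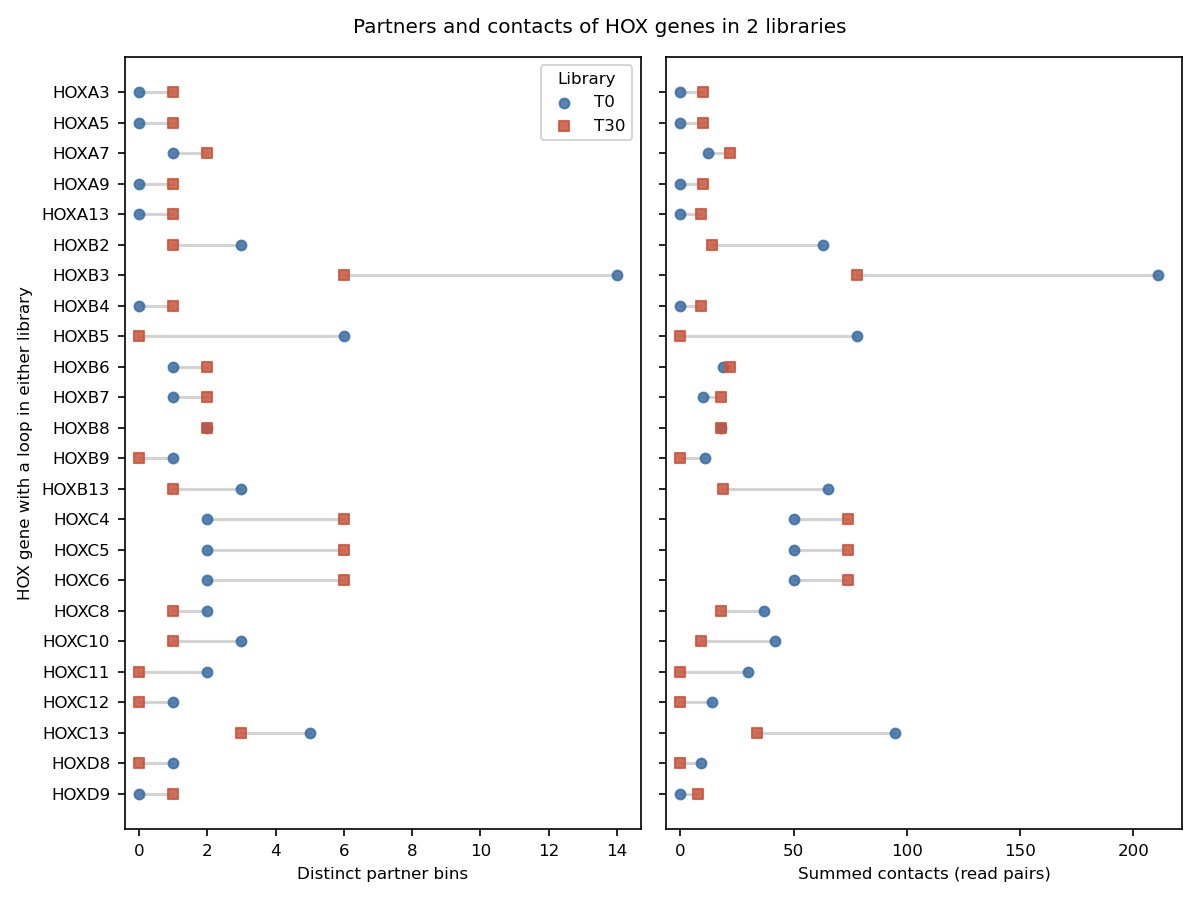
Distinct partner bins (left) and summed contacts in read pairs (right) of the 24 HOX genes with a loop in either library; circles are T0, squares are T30 and grey lines join the libraries. Counted from listed bin pairs without their merged ranges, HOXB3 goes from 14 partners to 6 and HOXB5 from 6 to 0. HOXC4, HOXC5 and HOXC6, which share their loops, go from 2 to 6.

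At HOXC, the cluster was split by the side its genes met. The posterior genes HOXC13, HOXC12 and HOXC11 met the lower flank in every listed loop, and HOXC8, HOXC6, HOXC5 and HOXC4 met the upper flank in every listed loop. HOXC10 lay between, with 2 loops down and 1 up in T0 and 1 up in T30. In T0, 10 loops led to the lower side (165 contacts) and 5 to the upper side (103 contacts). In T30, 3 led to the lower side (34 contacts) and 8 to the upper side (101 contacts). The direction of the difference on the lower side held in all 7 other settings tried, but its size depended on the gene definition. When genes were extended by 10 kb, or with the whole cluster interval, the lower side had 14 loops in T0 and 8 in T30, since bins at HOTAIR and between the genes then count. The upper side had 5 in T0 under all 7 settings, and between 5 (q under 0.01) and 8 in T30.

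On the posterior side, HOXC13, known for its role in hair and nails, had 5 partners and 95 contacts in T0 and 3 partners and 34 contacts in T30. The T0 ends lay mostly in the bin at 53935001, which also holds the antisense gene HOXC13-AS (4 partners, 80 contacts), and no T30 loop was listed there. However, the merged range of the T30 loop between 53800001 and 53940001, from 53935001 to 53945000, covered that bin. The bin at 53940001 had 1 and 2 partners and the bin at 53945001 had 0 and 1. HOXC12 had 1 partner and 14 contacts in T0 and none in T30. HOXC11 had 2 partners and 30 contacts in T0 and none in T30. In the bin just below HOXC11 at 53965001, within the long non-coding RNA gene HOTAIR and outside the members, there were 2 partners in each library, with 34 and 21 contacts. HOXC10 had 3 partners and 42 contacts in T0 and 1 partner and 9 contacts in T30. HOXC9 had none.

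On the anterior side, HOXC4, HOXC5 and HOXC6 share the same annotated lower end and the same loops, and cannot be told apart. They had 2 partners and 50 contacts in T0 and 6 partners and 74 contacts in T30. The T0 loops met in the bin at 54030001, which holds MIR615, and had 34 and 16 contacts. In T30 that bin also had 2 partners (25 contacts). The bins at 54015001, which holds the start shown above, and 54020001 had 2 partners each (26 and 23 contacts) where T0 listed none. However, the merged range of the T0 HOXC8 loop of 23 contacts, 54000001 to 54020000, covered the bin at 54015001. The T30 loops from 54015001 to 54190001 and from 54030001 to 54195001 carry the same merged ranges, so their partners are not separate. HOXC8, a trunk patterning gene, had 2 partners and 37 contacts in T0 and 1 partner and 18 contacts in T30.

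The far ends of HOXC loops differed between the sides. On the lower side all lay in a stretch without protein-coding genes between CALCOCO1 and HOXC13. The bin at 53785001 met HOXC11, HOXC12 and HOXC13 in T0 (3 loops, 45 contacts) and no HOX gene in T30, and the bin at 53800001 met HOXC10 and HOXC13 in T0 and HOXC13 in T30. On the upper side they lay in and around SMUG1, a uracil-DNA glycosylase gene, as far as 54220001 near CBX5, the gene of a heterochromatin protein. SMUG1 itself held 1 loop end in T0 and 2 in T30.

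The strongest HOXC loop of T0 had 34 contacts between 54030001 and 54190001 (160 kb). It was followed by 24 contacts between 53820001 and 53935001 (115 kb) and by 2 loops of 23, between 53900001 and 53935001 (35 kb) and between 54005001 in HOXC8 and 54200001 (195 kb). In T30 the first had 18 contacts between 54005001 in HOXC8 and 54200001 (195 kb), then 16 between 54015001 and 54190001 (175 kb) and 15 between 53800001 and 53940001 (140 kb). The longest loop was 230 kb in each library, with 14 contacts in T0 on the lower side and 9 in T30 on the upper side, both at HOXC10.

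**Figure D3:**
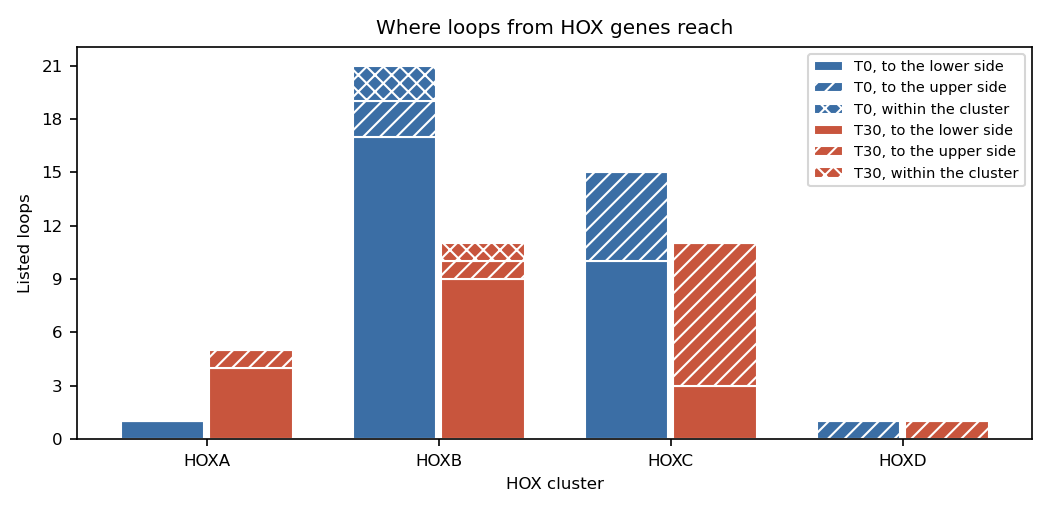
Listed loops (vertical axis) of each HOX cluster by library and by where they reach: plain bars the side of lower coordinates, single hatching the side of higher coordinates, cross hatching within the cluster. HOXC has 10 loops to the lower side and 5 to the upper side in T0, and 3 and 8 in T30.

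At HOXA, T30 listed 5 loops and T0 listed 1, all weak and long. The T0 loop had 12 contacts over 790 kb and joined the bin at 27155001 in HOXA7 to SNX10. In T30, 4 loops of 10 to 12 contacts joined members to SKAP2, an adaptor gene, at spans of 290 to 470 kb. HOXA7 took part in 2 of these, from the same bin as in T0 (1 partner and 12 contacts in T0, 2 and 22 in T30). HOXA9, a factor of blood and mammary development, had 0 and 1 partners, and HOXA5, a regulator of growth in breast cells, had 0 and 1. The HOXA5 loop also counts for HOXA3, whose annotated gene body spans it. HOXA13, which patterns limbs and the genital tract, had 0 and 1 partners, and its T30 loop met JAZF1, a zinc finger gene on the opposite flank (9 contacts). At 820 kb it was the longest HOX loop of either list. HOXA2, HOXA4, HOXA6, HOXA10 and HOXA11 had none. Counts of 9 to 12 lie near the smallest listed, which were 7 in T0 and 8 in T30. Absence of a loop from a list does not show that the contact was absent.

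Counting all its loops, SKAP2 had 5 with 71 contacts in T0 and 7 with 70 contacts in T30. Outside the members, loops within 1 Mb of the HOXA cluster numbered 12 in T0 and 9 in T30.

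At HOXD, each library listed 1 loop, and both reached the same far bin at 176635001, which holds LINC01116 and LINC01117 and lies 296976 bp from the nearest protein-coding gene, MTX2. The T0 loop met the HOXD8 bin at 176125001 with 9 contacts over 510 kb. The T30 loop met the HOXD9 bin at 176120001 with 8 contacts over 515 kb. The other HOXD members, HOXD1, HOXD3, HOXD4, HOXD10, HOXD11, HOXD12 and HOXD13, had none. With the whole cluster interval in place of its genes, HOXD had 4 loops in T0 and 3 in T30, all to the upper side, with the added ends between HOXD8 and HOXD4. At least 10 contacts left no HOXD loop in either library.

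Spans of HOX loops were much alike in the 2 libraries, unlike those of the lists. In T0 the median was 190 kb both for HOX loops and for the list, and in T30 it was 227.5 kb for HOX loops and 80 kb for the list. The HOXB median was 260 kb (35 to 495 kb) in T0 against 240 kb (40 to 465 kb) in T30. The HOXC median was 170 kb (35 to 230 kb) and 165 kb (100 to 230 kb). Contacts per HOX loop had a median of 15.5 in T0 (8 to 34) and 11 in T30 (8 to 19), against 14 and 13 over all loops. By cluster these medians were 16 and 12 at HOXB and 16 and 11 at HOXC. Loops of HOXB and HOXC over 300 kb had at most 11 contacts in either library.

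**Figure D4:**
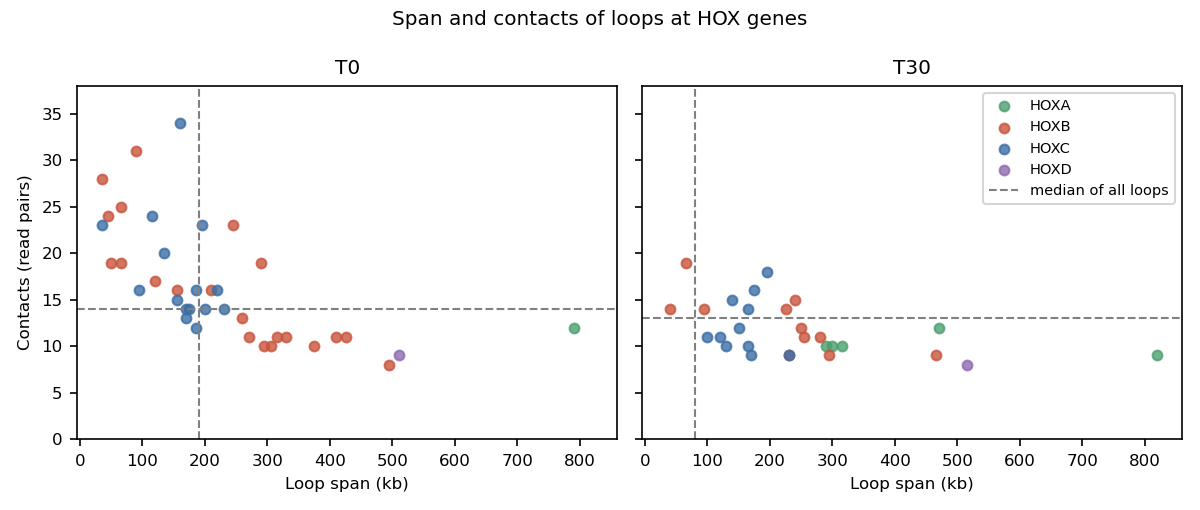
Contacts (read pairs) against span (kb) of each loop at a HOX gene in T0 (left) and T30 (right), coloured by cluster; dashed lines are the medians over all loops of the library. HOX loops lie around the list's median span of 190 kb in T0 and mostly above its median of 80 kb in T30.

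Few HOX loops were found at the same place in both libraries, but many lay close by. With overlap of the merged ranges at both ends by at least 1 bp, 8 of 38 T0 loops (21.1%, exact binomial 95% interval 9.55 to 37.3) and 9 of 28 T30 loops (32.1%, 15.9 to 52.4) had a counterpart, against 22.2% and 16.4% of all loops. Identical bins at both ends were found for 1 loop, the HOXC8 loop of 195 kb. With both ends within 10 kb the shares were 21 of 38 (55.3%, 38.3 to 71.4) and 17 of 28 (60.7%, 40.6 to 78.5), against 36.4% and 27.4% of all loops. Under this wider rule HOXB had 9 of 21 and 8 of 11 loops with a counterpart, HOXC had 11 of 15 and 8 of 11, and the HOXD loops were each other's counterpart. No HOXA loop had a counterpart under any of the 3 definitions.

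One-to-one matching by range gave 8 pairs with a HOX loop in either library, 4 at HOXB and 4 at HOXC. Their contacts in T0 and T30 were 23 and 18 at HOXC8, 34 and 14 at the shared HOXC4, HOXC5 and HOXC6 bin, 20 and 15 at HOXC13, and 16 and 11 at HOXC11, whose T30 counterpart ended in HOTAIR. The pairs at HOXB3 had 23 and 15, 13 and 12, and 31 and 14, and the HOXB13 pair had 25 and 19. Summed over the merged group of each loop, contacts were 115 and 134 at the shared HOXC4, HOXC5 and HOXC6 bin. They were 63 and 101 at HOXB13, and lower in T30 at the other pairs. In the listed bin pairs, every HOX pair had fewer contacts in T30. So did most matched pairs, for which the median ratio was 0.667. Against that ratio, 5 HOX pairs lay above and 3 below, and none was called in an exact two-sided binomial test with Benjamini-Hochberg adjustment over all 1389 pairs (0 at an unadjusted p under 0.05; lowest adjusted p = 0.977). Over all pairs 1.58% were called higher in T30 and 0.072% lower. The test compares 2 libraries and not 2 conditions. On simulated counts it called 1 of 50 loops set 2-fold lower and 7 of 50 set 3-fold lower. For loops set higher it called 6 of 50 at 2-fold and 39 of 50 at 3-fold. The lack of a call therefore does not show that contacts were alike. The pair furthest from the median ratio, 34 and 14 contacts, had a log2 ratio of -0.70 relative to it (95% interval -1.71 to 0.24). With the ratio of summed contacts in place of the median it was called lower (exact binomial adjusted p = 0.0327), and with no scaling it was not (0.0815).

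**Figure D5:**
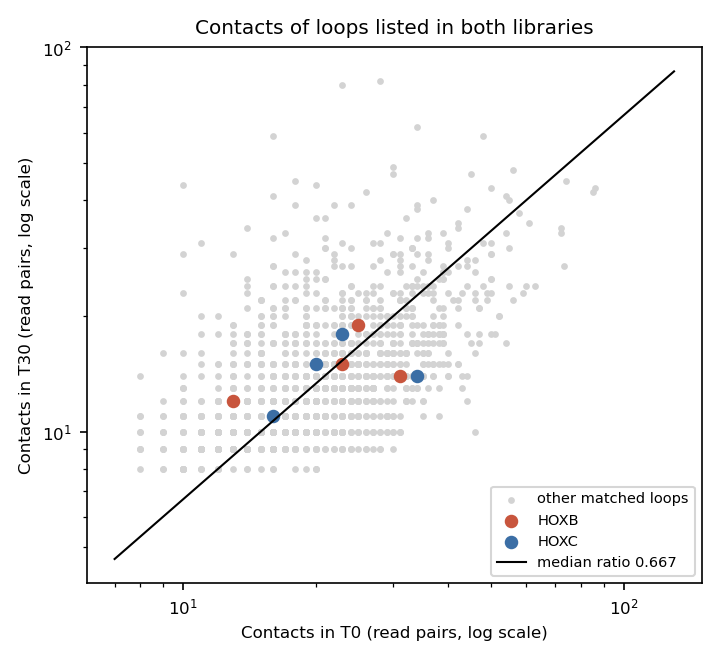
Contacts in T30 against T0 (read pairs, both axes logarithmic) for 1389 matched loops, with HOXB and HOXC pairs coloured and the line at the median ratio of 0.667. The 8 HOX pairs, which had 11 to 19 contacts in T30, lie on both sides of the line.

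Genes that work with HOX proteins or control their clusters were counted in the same way. Of 11 genes for HOX cofactors of the TALE homeodomain class, 3 were looped in T0 against 6 in T30. PKNOX2 had 11 and 10 partners with 180 and 114 contacts, MEIS3 had 0 and 2 partners, MEIS2 0 and 1, TGIF1 3 and 1, and TGIF2 2 and 1. Of 25 genes for regulators of HOX expression, such as Polycomb and Trithorax proteins, CTCF, cohesin and retinoic acid receptors, 5 were looped in T0 against 9 in T30, with more partners in T30 at 7 and fewer at 1. Over all genes 16.5% had more partners in T30 and 11.6% fewer. ZBTB16, a zinc finger repressor that acts on HOX genes, had 0 and 13 partners. RARA, a retinoic acid receptor gene, had 3 and 5 partners, but 5 and 4 loops and 149 and 64 contacts. RARG had 1 and 3 partners, KAT6A, an acetyltransferase gene, 0 and 3, and CBX8, a Polycomb gene, 0 and 4. CTCF had 0 and 3. Among the HOX members, 12 had more partners in T30 and 11 fewer.

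Of the 40 protein-coding genes nearest to the clusters, 5 on each side of each, 16 were looped in T0 against 15 in T30. Over all protein-coding genes 19.7% and 23.5% were looped. The neighbour counts include HOX loops and are not separate from them. Of the SKAP1 loops, 12 of 13 in T0 and 8 of 8 in T30 met a HOX gene. All loops of SMUG1, SNX11 and JAZF1 did so too. ATF7 and ATF7-NPFF, which had the same values, were counted separately. None of the 10 around HOXD had a loop in either library, and 4 of the 5 above HOXC had one in both. Beside HOXC, CBX5 had 6 partners and 170 contacts in T0 and 1 partner and 11 contacts in T30, and COPZ1, a coatomer subunit gene, had 4 and 1 partners. Beside HOXB, SKAP1 had 7 and 5 partners, TTLL6 had 4 and 5, and CBX1 and COPZ2, of the same families as CBX5 and COPZ1, had 0 and 2 and 0 and 3.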

How the data were processed

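Loop lists of 2 T47D libraries (HiChIP for the progesterone receptor) were used. Deposited lists hold loops at or under a q-value of 0.05 after merging of near contacts, as the authors' file names and values show. Bowtie, hg38 and GRCh38 stand in the submitters' processing notes with no role; other steps are not given here. The contacts of a loop are raw counts of read pairs joining a pair of 5 kb bins, as deposited. Bias-corrected p-values and q-values were deposited by the authors, per the file headers. A deposited fraction per merged group was not used. The largest p-value was 0.000233 in T0 and 2.84e-05 in T30.

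Gene bodies were from RefSeq (GRCh38.p14), with all 38 members found among 19974 protein-coding genes. Span is the distance between bin starts, and the side of a loop is where its far bin lies relative to the first and last member. Without replicates no test across conditions could be made. Loops were matched one-to-one, closest first, where merged ranges overlapped by at least 1 bp at both ends. Matched contacts were compared by exact binomial tests, adjusted by Benjamini-Hochberg, with a threshold of 0.05. Exact 95% intervals cover counting error only and take loops as independent, although many share an end; read pairs may also be copies of 1 molecule.

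Members and lists were chosen with earlier results of these data known. Some genes of the lists are counted but not reported by name here. Every member with a loop is named, with the 3 loops of most contacts and the longest per cluster and library and all matched loops. The HOXA9 promoter, the microRNAs and the far bins singled out were chosen after the values were seen, as was the setting with a common largest p-value. Other settings were q under 0.01, at least 10 contacts, a span of at least 20 kb, wider genes, gene-end bins, the whole cluster, and other matching and scaling. The scripts, tested on simulated data, ran under Python 3.11.15 with scipy 1.17.1, pandas 2.3.3, numpy 2.4.6 and matplotlib 3.10.9.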

Additional observations from a re-analysis of the deposited data

How the results depend on the processing

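At q under 0.01, loops and partners were 7 and 7 at HOXB and 6 and 6 at HOXC in T30, and 0 and 0 at HOXD in T30. With gene-end bins they were 7 and 7 at HOXB and 7 and 7 at HOXC in T30. With at least 10 contacts HOXD had 0 loops and 0 partners in T0 and in T30. With genes widened by 10 kb, and likewise with the whole cluster interval, HOXD had 4 loops and 3 partners in T0 and 3 loops and 2 partners in T30. The other counts of loops and partners stayed within 1.5 times under each of these settings. A span of at least 20 kb changed no count and no median span, and median contacts at q under 0.01 stayed within 1.5 times, with none for HOXD in T30, which had no loop left. With a common largest p-value, chosen after the data were seen, HOX loops numbered 29 in T0 and 28 in T30 of 4270 and 9591. Matched pairs with a HOX loop numbered 1 with identical bins and 18 with bins within 10 kb. With the ratio of summed contacts 1 pair was called lower in T30. No paired analysis was possible because each condition has 1 library. With 11 to 34 contacts per matched loop the intervals are wide, and loops near the smallest listed count may be missed in either list.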
